A study of Homo sapiens with 5 samples.

Results

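The genes described here are the AKT kinases, their activating kinase PDK1 and the subunits of the mTOR complexes in HCT116 cells, an established human colorectal carcinoma line. The 9 members (AKT1, AKT2, PDPK1, MTOR, RPTOR, RICTOR, MLST8, MAPKAP1 and AKT1S1) were taken by gene symbol from the 60623 genes of the deposited table, and each symbol matched 1 row. RNA-seq libraries came from control cells (replicates 1, 2 and 3, n = 3) and from cells given LT4 (replicates 1 and 3, n = 2). The labels do not say what the controls received, nor the dose, the time or the number of cultures, and the table headers name the LT4 libraries as separate groups. The series title calls the compound 4-acetylantrocamol LT3, and the design text and sample names call it LT4. The title names the PI3K/AKT pathway, so the question put to these genes is whether the transcripts of that kinase axis differed between treated and control cells. It cannot be told whether replicates were separate cultures, so p-values here measure library-to-library spread that may be wholly technical.

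The libraries differed in depth. Total counts were 11653484 to 12296916 in the controls, 9840467 for LT4 replicate 1 but 2281912 for LT4 replicate 3, with 19492 to 20203, 19377 and 16770 genes detected. A count of 3 was 0.244 to 0.257 CPM (counts scaled to the library total) in the controls but 1.31 CPM in LT4 replicate 3. The members' log2 fold changes are therefore also given for each LT4 library alone. CPM values of genes below are further scaled by edgeR's TMM factors, except where the library total is named. Epithelial markers (EPCAM, KRT8, KRT18, KRT19, CDH1, VIL1 and CDX2) summed to 9023 to 10099 TPM (the deposited per-length measure) in controls and 7903 to 9823 TPM with LT4. They were uneven, with 14765 to 95472 counts per library for KRT8 but 1 to 4 for VIL1. Of the 6 leukocyte markers PTPRC and CD3E had no count in the 5 libraries and the list summed to 0.241 to 0.606 TPM in controls and 0.375 to 0.424 TPM with LT4. Endothelial markers summed to at most 0.548 TPM and fibroblast markers to at most 5.33 TPM in any library. The fibroblast markers were uneven. COL1A1 had 179, 186 and 190 counts in controls 1, 2 and 3 and 142 and 21 in LT4 replicates 1 and 3. DCN had 0 counts, and COL1A2, COL3A1, LUM and PDGFRB had at most 11 in a library. In bulk RNA a lower level per cell and fewer cells with the transcript cannot be told apart.

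AKT kinases are recruited to the plasma membrane by the lipid product of PI3K. There PDK1, encoded by PDPK1, phosphorylates their activation loop, and mTOR complex 2 (mTORC2) phosphorylates their hydrophobic motif. The kinase mTOR and its partner MLST8 are in both complexes. RPTOR and the inhibitor PRAS40, encoded by AKT1S1, define mTORC1, which drives protein synthesis and growth. RICTOR and SIN1, encoded by MAPKAP1, define mTORC2. The axis is controlled largely by phosphorylation, which RNA-seq does not measure.

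Start-site windows of 300 bases (250 before the start and 50 after, RefSeq, GRCh38.p14, written 5' to 3') are shown for the 3 members with the highest log2 fold changes and for RPTOR, the mTORC1 counterpart of RICTOR. Capitals mark GGGCGG (the GC box), CCAAT and TATAAA on either strand, and neighbouring or overlapping matches run together.
RICTOR, chr5:39074350-39074649, minus strand: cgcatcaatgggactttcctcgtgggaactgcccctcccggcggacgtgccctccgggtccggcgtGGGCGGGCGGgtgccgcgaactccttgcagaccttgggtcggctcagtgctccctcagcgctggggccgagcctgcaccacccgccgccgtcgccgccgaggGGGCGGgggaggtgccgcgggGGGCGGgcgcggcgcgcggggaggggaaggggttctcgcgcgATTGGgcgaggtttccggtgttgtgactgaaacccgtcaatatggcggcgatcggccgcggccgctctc
PDPK1, chr16:2537771-2538070, plus strand: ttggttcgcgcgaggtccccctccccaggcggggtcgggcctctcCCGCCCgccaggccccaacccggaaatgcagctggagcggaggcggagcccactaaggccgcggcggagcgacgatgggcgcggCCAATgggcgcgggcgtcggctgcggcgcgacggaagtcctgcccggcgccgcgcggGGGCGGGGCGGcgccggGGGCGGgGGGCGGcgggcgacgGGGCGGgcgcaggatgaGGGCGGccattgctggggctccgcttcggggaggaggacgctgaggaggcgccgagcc
MTOR, chr1:11262502-11262801, minus strand: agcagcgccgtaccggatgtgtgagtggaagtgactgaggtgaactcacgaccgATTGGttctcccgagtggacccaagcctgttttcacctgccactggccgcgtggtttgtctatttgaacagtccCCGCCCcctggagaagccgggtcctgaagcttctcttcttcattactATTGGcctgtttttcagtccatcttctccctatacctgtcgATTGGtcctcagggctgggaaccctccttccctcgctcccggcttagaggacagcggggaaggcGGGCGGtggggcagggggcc
RPTOR, chr17:80544588-80544887, plus strand: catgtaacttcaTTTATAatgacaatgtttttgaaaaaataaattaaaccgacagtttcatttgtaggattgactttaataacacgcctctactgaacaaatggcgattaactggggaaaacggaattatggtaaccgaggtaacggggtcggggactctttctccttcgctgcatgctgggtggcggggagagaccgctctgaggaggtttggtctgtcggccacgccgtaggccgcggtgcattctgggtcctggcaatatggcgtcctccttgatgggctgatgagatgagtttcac

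The RICTOR and PDPK1 windows were rich in G and C (74% and 80%), held 42 and 47 CpG pairs, and had 4 and 7 GC boxes. The MTOR window was 59.3% G and C with 16 CpG pairs, and the median over 35116 windows of the table was 58.7% with 14 pairs. The RPTOR window, at 48% G and C, had no GC box and 1 TATAAA match. Of the windows not shown, those of AKT1 were 83.3% and 56.7% G and C, with 7 and 1 GC boxes. Those of AKT2 were 68% and 64%, with 4 and 1, and that of MAPKAP1 was 68.3%, with 1. A G and C rich window was thus not particular to the members with the highest log2 fold changes. The table gave 9 windows for 7 members, with more than 1 for AKT1 and AKT2, and none for MLST8 or AKT1S1. A GC box was found in 8 of the 9 windows against 45% of all windows, CCAAT in 4 against 34.6%, and TATAAA in 1 against 11.5%. TGATGNAA, the core of the composite element read by ATF4 and CHOP, was found in 0 of the 9 and in 3.62% of all windows. These are matches of letters and say nothing about binding.

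On the per-length scale the members covered a wide range in control cells. MLST8 and AKT1S1 were the most abundant, at 125 ± 4.24 and 122 ± 11.5 TPM (SD, n = 3), and their ranges overlapped. AKT1 followed at 63.1 ± 7.42 TPM. MAPKAP1 (22.8 ± 0.776 TPM), RPTOR (22 ± 3.25 TPM), MTOR (17.6 ± 3.61 TPM) and AKT2 (16.4 ± 0.901 TPM) formed a run in which each range overlapped that of the next gene. PDPK1 was lower, at 5.5 ± 0.406 TPM, near the median of 5.16 TPM over the 14937 protein-coding genes detected in controls. RICTOR was lowest, at 0.365 ± 0.154 TPM, above 19% of those genes and 15.1 times below PDPK1. MLST8, by contrast, stood at the 93.6th percentile.

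AKT1 exceeded AKT2 per length, with AKT2 at 0.246, 0.257 and 0.282 of AKT1 in controls 1, 2 and 3 and at 0.242 and 0.257 in LT4 replicates 1 and 3. In LT4 cells RICTOR remained the lowest member, at 1.09 ± 0.135 TPM (SD, n = 2), and PDPK1 the next, at 7.62 ± 2.35 TPM.

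**Figure D1:**
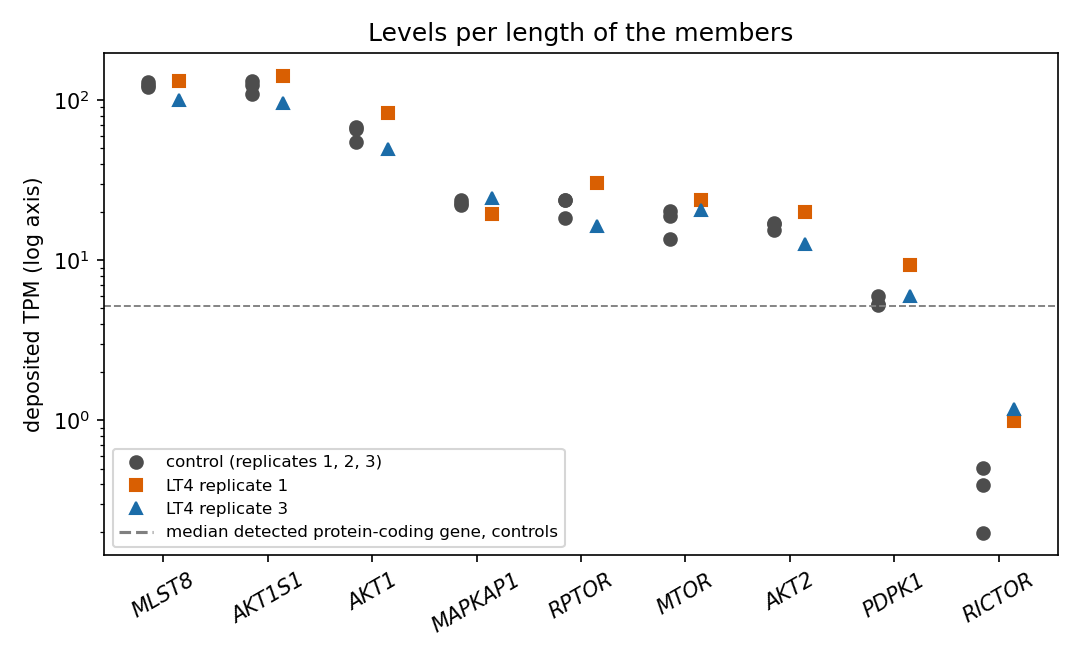
Deposited TPM of the 9 members in each library on a log axis, ordered by the control mean, with controls as circles, LT4 replicate 1 as squares and LT4 replicate 3 as triangles; the dashed line is the median of detected protein-coding genes in controls (5.16 TPM). RICTOR lies below the line in all 5 libraries and MLST8 and AKT1S1 lie at the top.

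None of the 9 members passed the test of LT4 against control. The test was edgeR's quasi-likelihood test over the 13833 genes with enough counts, with a threshold of 0.05 on the adjusted p, and it called 0.137% of the genes tested (0.123% higher and 0.0145% lower). All 9 members were tested, 0 rose and 0 fell, and DESeq2 and limma voom also called 0 (DESeq2 gave RICTOR no adjusted p). At an unadjusted p under 0.05 the members gave 2 higher, RICTOR and PDPK1, and 0 lower, where 8.58% of all genes were higher and 5.28% lower. TMM-scaled LT4 values exceeded all control values in both libraries for 3 members (RICTOR, PDPK1 and MTOR), against 17.3% of all genes. They were under all of them for 1 (MLST8, not so when scaled to library totals only), against 16.5%. The median log2 fold change of the members was 0.03, and over all genes tested it was -0.003. The median size of the change without its sign was 0.0927 for the members and 0.224 for all genes. These sets were not matched for level, and for 5 members values of opposite sign in the LT4 libraries partly cancel.

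**Figure D2:**
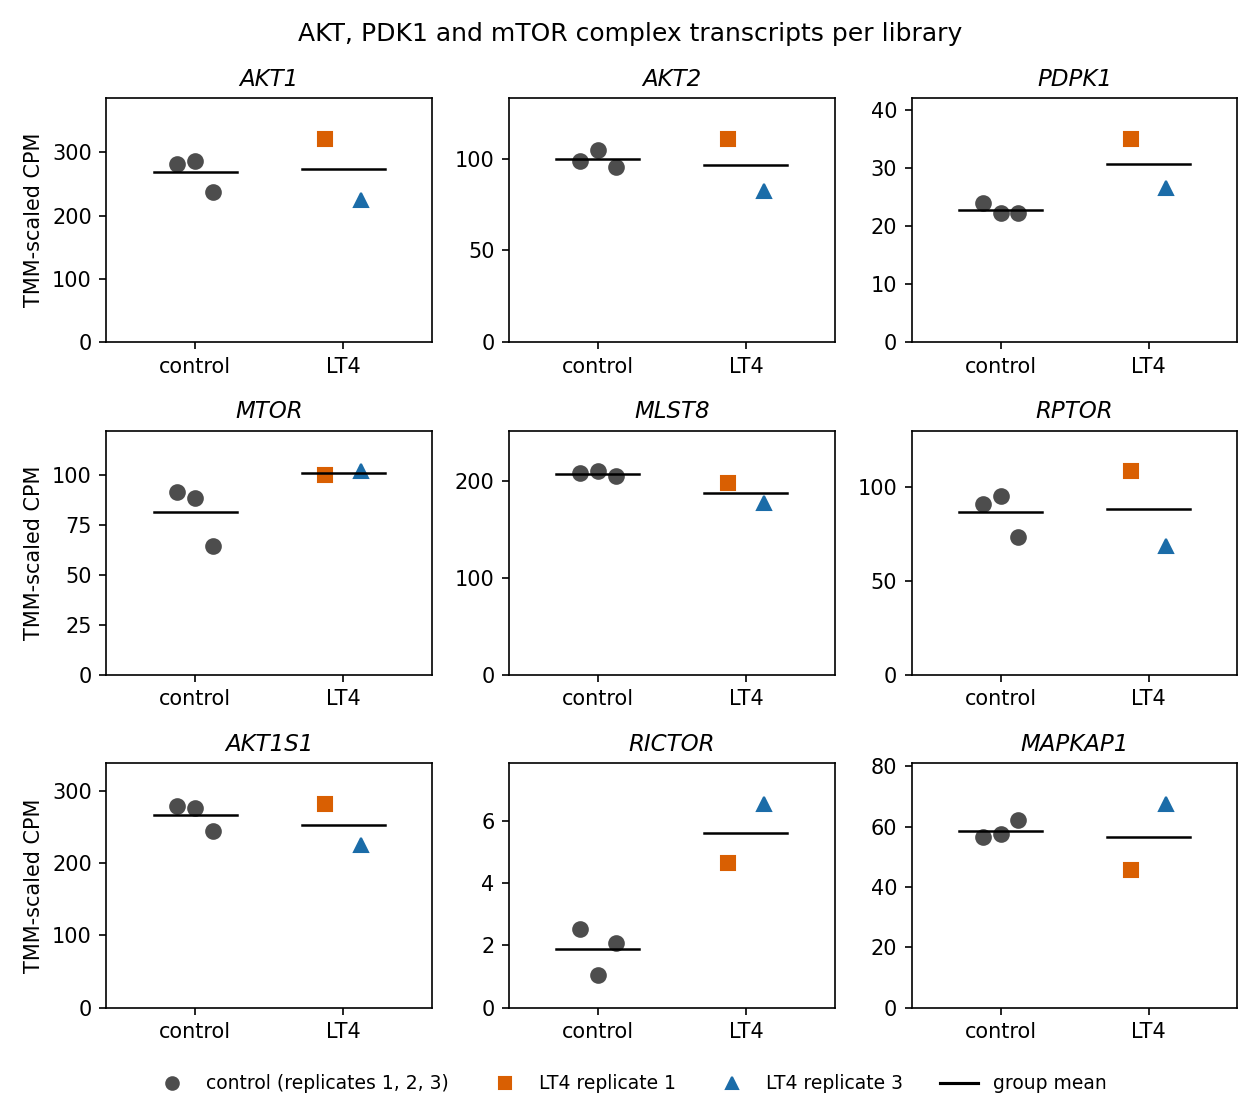
TMM-scaled CPM of the 9 members in each library (vertical axis from 0, scaled per gene). Circles mark controls, squares LT4 replicate 1, triangles LT4 replicate 3 and lines the group means. RICTOR, PDPK1 and MTOR lie above all controls in both LT4 libraries and MLST8 below, while the LT4 libraries lie on opposite sides of the control mean for AKT1, AKT2, RPTOR, MAPKAP1 and AKT1S1.

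AKT1, the broadly expressed AKT kinase (ENSG00000142208, GRCh38 chromosome 14, 104769349 to 104795751, protein-coding), had 281, 286 and 238 CPM in controls 1, 2 and 3. LT4 replicate 1 had 321 CPM and LT4 replicate 3 had 225 CPM. One LT4 library was thus above all controls and the other below them. Its log2 fold change came to 0.03 (SE 0.16, 95% interval -0.32 to 0.39, adjusted p = 0.953), with 0.26 and -0.26 for LT4 replicates 1 and 3 alone. AKT2, the paralog known for insulin-stimulated glucose uptake (ENSG00000105221, chromosome 19, 40230317 to 40285536), had 98.6, 105 and 95.4 CPM in the controls and 111 and 82.2 CPM in LT4 replicates 1 and 3. It split in the same way, with a log2 fold change of -0.03 (SE 0.16, interval -0.36 to 0.31, adjusted p = 0.96), and 0.16 and -0.27 for the single libraries. For both kinases the interval leaves out a change of 2-fold in either direction. The sign of so small a value depends on the settings. AKT1 had -0.17 with the gene-length trend removed, and AKT2 had 0.02 with library totals as the scaling and 0.07 with the GC trend removed.

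PDPK1 encodes PDK1, the master kinase of the AGC family (ENSG00000140992, chromosome 16, 2537964 to 2603188). It had 24, 22.3 and 22.3 CPM in controls 1, 2 and 3, from 257 to 296 counts. For LT4 replicate 1 it was 35.1 CPM (355 counts) and for LT4 replicate 3 it was 26.5 CPM (61 counts). Both lay above the controls, LT4 replicate 3 by little, and its 5.962 TPM did not exceed the 5.971 TPM of control 1. PDPK1 had a log2 fold change of 0.47 (SE 0.17, interval 0.10 to 0.84, adjusted p = 0.25). With LT4 replicate 1 alone it was 0.62 (SE 0.18, adjusted p = 0.0352), in a comparison that called 3.7% of genes, and with LT4 replicate 3 alone 0.21 (SE 0.24, adjusted p = 0.672). The authors' deposited table gives PDPK1 a log2 fold change of 0.63 (adjusted p = 0.0198) for LT4 replicate 1 and 0.19 (adjusted p = 0.761) for LT4 replicate 3. Removing the gene-length trend between libraries lowered the value to 0.27 (adjusted p = 0.543). PDPK2P, a near-identical copy, had 0, 2, 0, 0 and 0 counts in the 5 libraries, and how reads shared by both were assigned is not given in the sources used here.

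MTOR, the kinase common to both complexes (ENSG00000198793, chromosome 1, 11106535 to 11262507), had 91.7, 88.6 and 64.3 CPM in controls 1, 2 and 3. It had 100.03 and 102 CPM in LT4 replicates 1 and 3. The LT4 libraries were close to each other, and control 3 was the low value of the controls. MTOR had a log2 fold change of 0.31 (SE 0.17, interval -0.06 to 0.67, adjusted p = 0.437), with 0.30 and 0.32 for LT4 replicates 1 and 3 alone. Without control 3 the value was 0.16, with all libraries thinned to the shallowest it was 0.13, and with the length trend removed it was 0.08. MLST8, the small beta-propeller subunit that binds the mTOR kinase domain (ENSG00000167965, chromosome 16, 2204248 to 2209416), had 208, 209.7 and 205 CPM in the controls. LT4 replicate 1 had 198 CPM and LT4 replicate 3 had 177 CPM, both below every control on this TMM scaling. Scaled to the library total only, LT4 replicate 1 had 203 CPM, within the controls' 208, 202 and 204 CPM. LT4 replicate 3 had 178 CPM on that scale. In TPM the order differed, with 131 TPM in LT4 replicate 1 above the controls' 129, 125 and 121 TPM and 99.5 TPM in LT4 replicate 3 below them. For MLST8 the log2 fold change was -0.14 (SE 0.13, interval -0.43 to 0.14, adjusted p = 0.661), with -0.07 and -0.23 for the single libraries. It was 0.07 with all libraries thinned to the shallowest and 0.01 with the GC trend removed.

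The mTORC1 subunits gave mixed values. RPTOR, the scaffold that brings substrates to mTORC1 (ENSG00000141564, chromosome 17, 80544819 to 80966371), had 91.1, 94.8 and 73.5 CPM in the controls. LT4 replicate 1 had 108 CPM, the highest value, and LT4 replicate 3 had 68.3 CPM, the lowest. The log2 fold change was 0.06 (SE 0.19, interval -0.35 to 0.47, adjusted p = 0.924), with 0.32 and -0.34 for LT4 replicates 1 and 3 alone and -0.13 with the length trend removed. AKT1S1, whose product PRAS40 is an AKT substrate that restrains mTORC1 (ENSG00000204673, chromosome 19, 49869033 to 49878459), had 279, 277 and 245 CPM in the controls. They were 282 CPM for LT4 replicate 1 and 225 CPM for LT4 replicate 3, again one above and one below the controls. For AKT1S1 the log2 fold change was -0.07 (SE 0.14, interval -0.38 to 0.24, adjusted p = 0.876), with 0.08 and -0.25 for the single libraries and 0.05 with the GC trend removed. Exons of AKT1S1 share 392 bases (6.83%) with TBC1D17 on the opposite strand.

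RICTOR, the defining scaffold of mTORC2 (ENSG00000164327, chromosome 5, 38937919 to 39074408), had the highest log2 fold change and the smallest p of the members, and it was also the scarcest. It had 31, 12 and 24 counts in controls 1, 2 and 3, 47 for LT4 replicate 1 and 15 for LT4 replicate 3, a sum of 129. In CPM these were 2.52, 1.04 and 2.07 in the controls and 4.65 and 6.53 with LT4. Every LT4 value exceeded every control, and the mean was 1.88 ± 0.758 CPM in controls (SD, n = 3) and 5.59 ± 1.33 CPM with LT4 (SD, n = 2). RICTOR had a log2 fold change of 1.48 (SE 0.39, interval 0.63 to 2.33), and its adjusted p of 0.133 did not pass. Of all genes tested, 18.9% had a lower summed count.

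Counting error is large at this depth. Of the library total, the exact Poisson 95% interval ran from 1.71 to 3.58 CPM in control 1 and from 3.51 to 6.35 CPM in LT4 replicate 1, so these overlap. In controls 2 and 3 it ended at 1.75 and 3.06 CPM, below that of LT4 replicate 1. In LT4 replicate 3 it ran from 3.68 to 10.8 CPM, above all 3 controls. Such intervals cover counting error only. With LT4 replicate 1 alone the log2 fold change was 1.30 (SE 0.41, adjusted p = 0.0604), and with LT4 replicate 3 alone 1.79 (SE 0.55, adjusted p = 0.0548, in a comparison that called 4.12% of genes). The authors' deposited table gives RICTOR 1.31 (adjusted p = 0.00473) for LT4 replicate 1, where it calls 6.09% of genes. For LT4 replicate 3 the authors' deposited table gives 1.76 (adjusted p = 0.0238), where it calls 4.84%. Those comparisons and the ones here share the same libraries, and both LT4 comparisons share the controls. RICTOR passed in the joint test with no count filter (log2 fold change 1.45, adjusted p = 0.0231), and over the other alternatives that gave an adjusted p the values ran from 0.99 to 1.79. OSMR, on the opposite strand, shares 229 bases (1.69%) of the RICTOR exons and had 326 to 411 counts in controls and 318 and 71 with LT4.

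MAPKAP1, which encodes the SIN1 subunit of mTORC2 (ENSG00000119487, chromosome 9, 125437393 to 125707234), gave values unlike those of RICTOR. It had 56.4, 57.4 and 62.1 CPM in the controls, against 45.7 CPM for LT4 replicate 1 and 67.4 CPM for LT4 replicate 3. One LT4 library was below all controls and the other above, the reverse of AKT1, AKT2, RPTOR and AKT1S1. The log2 fold change was -0.09 (SE 0.17, interval -0.46 to 0.28, adjusted p = 0.855), with -0.36 and 0.20 for LT4 replicates 1 and 3 alone.

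**Figure D3:**
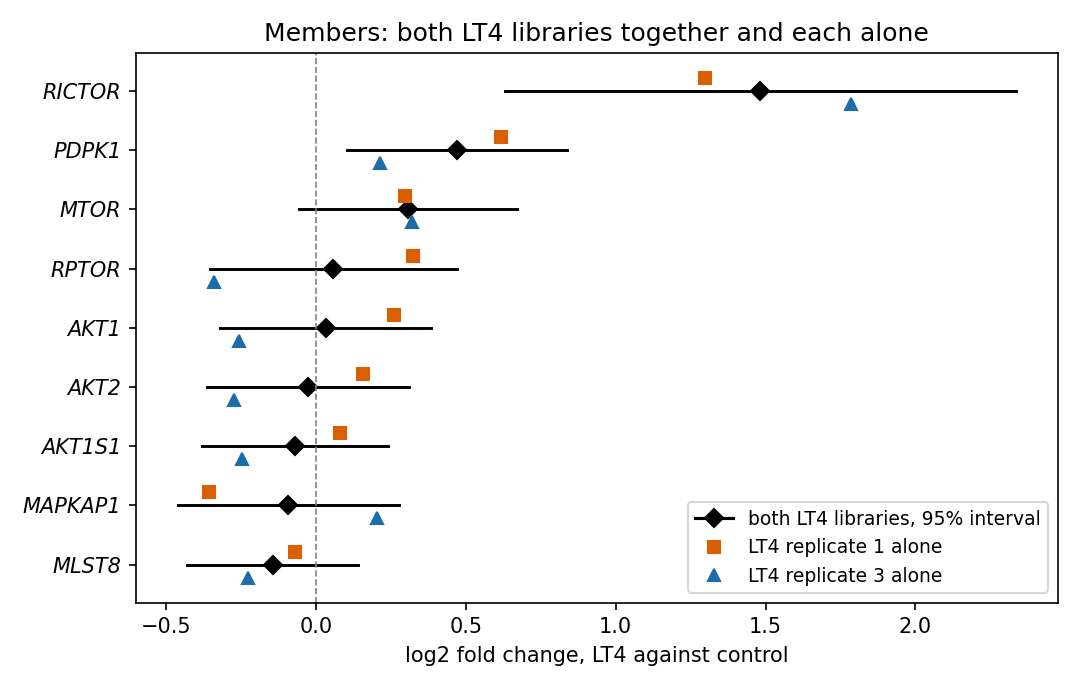
Log2 fold change of LT4 against control for the 9 members (diamonds, both LT4 libraries, with 95% intervals) and for LT4 replicate 1 (squares) and LT4 replicate 3 (triangles) alone. The intervals of RICTOR (0.63 to 2.33) and PDPK1 (0.10 to 0.84) lie above 0, though neither gene passed after adjustment, and 5 members have opposite signs in the LT4 libraries.

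The other subunits and helpers of the complexes gave 0 calls (edgeR, DESeq2 and limma voom), with 0 at an unadjusted p under 0.05. PRR5, or PROTOR1, an mTORC2 subunit, had 38.2 ± 3.32 CPM in controls and 32 ± 2.14 CPM with LT4 (log2 fold change -0.27, SE 0.16, adjusted p = 0.471), and both LT4 libraries were below every control. DEPTOR, an inhibitor of both complexes, had 1.38, 2.69 and 1.56 CPM in controls (17 to 31 counts) and 1.09 and 2.61 CPM with LT4 (11 and 6 counts). DEPTOR differed by -0.31 on the log2 scale (SE 0.54, adjusted p = 0.842), and by -0.77 and 0.48 for LT4 replicates 1 and 3 alone. TTI1 and TELO2, which help fold mTOR and its relatives, had 0.16 (SE 0.18, adjusted p = 0.737) and -0.09 (SE 0.16, adjusted p = 0.852). Their signs also differed between the LT4 libraries, with 0.38 and -0.20 for TTI1 and 0.09 and -0.33 for TELO2. PRR5L, a relative of PRR5, had at most 6 counts in a library and was not tested.

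Ratios between members within a library do not depend on how libraries are scaled to each other. They were not corrected for trends with GC content or gene length, in which paired genes differ. RICTOR and RPTOR transcripts were at 36.5% and 59.8% G and C, and with the GC trend removed their log2 fold changes were 1.19 and 0.17. MTOR and MLST8 had 12119 and 4323 exon bases, and with the length trend removed they had 0.08 and -0.14. For 7 such ratios of TPM, exact two-sided permutation tests over the 10 possible assignments of labels to libraries cannot give a p below 0.1, so none can pass, and p-values were adjusted over the 7. RICTOR relative to RPTOR, the scaffold of mTORC2 against that of mTORC1, was 0.021, 0.00835 and 0.0215 in controls 1, 2 and 3. It was 0.0327 in LT4 replicate 1 and 0.0727 in LT4 replicate 3, above every control. The log2 difference was 1.65 (exact permutation p = 0.1, adjusted p = 0.175). RICTOR relative to MAPKAP1, its mTORC2 partner, was 0.0222, 0.00902 and 0.0166 in the controls and 0.0506 and 0.0482 with LT4, a log2 difference of 1.73 (exact permutation p = 0.1, adjusted p = 0.175). RICTOR relative to MTOR differed by 1.32 on the log2 scale (exact permutation p = 0.2, adjusted p = 0.28).

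Among the ratios without RICTOR, PDPK1 relative to AKT1 was 0.0874, 0.0798 and 0.0959 in controls 1, 2 and 3 and 0.112 and 0.121 with LT4. The groups did not overlap, and the log2 difference was 0.41 (exact permutation p = 0.1, adjusted p = 0.175). MTOR relative to MLST8 was 0.158, 0.151 and 0.112 in the controls and 0.181 and 0.206 with LT4, a log2 difference of 0.48 (exact permutation p = 0.1, adjusted p = 0.175). AKT2 relative to AKT1 overlapped between groups and differed by -0.07 (exact permutation p = 0.5, adjusted p = 0.583). RPTOR relative to AKT1S1 also overlapped and differed by 0.08 (exact permutation p = 0.6, adjusted p = 0.6), with the sign turned without LT4 replicate 1 (-0.08). Although AKT1, AKT2, RPTOR and AKT1S1 each had opposite signs in the LT4 libraries, the ratios AKT2 to AKT1 and RPTOR to AKT1S1 stayed within 0.242 to 0.282 and 0.167 to 0.214.

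**Figure D4:**
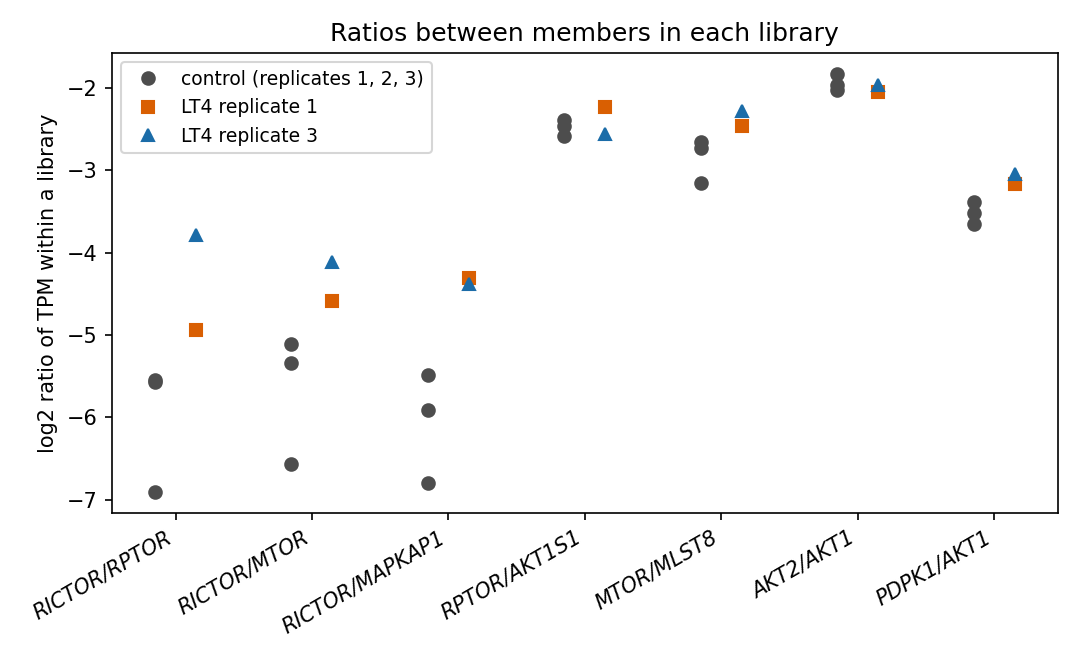
Log2 ratio of TPM between pairs of members in each library, with circles for controls, squares for LT4 replicate 1 and triangles for LT4 replicate 3. The LT4 libraries lie above the controls in the 3 ratios with RICTOR as numerator and in MTOR/MLST8 and PDPK1/AKT1, while in AKT2/AKT1 LT4 replicate 1 lies just below the controls and LT4 replicate 3 among them.

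GC content of the transcript moved with the change across all genes, more so in LT4 replicate 3. Among the 1940 tested genes whose longest GENCODE 29 transcript was under 40% G and C, the median difference from the control mean on the log2 scale was 0.23 in LT4 replicate 1 and 0.43 in LT4 replicate 3. Among the 2163 genes at 60% or more it was -0.03 and -0.25. Of the former genes 36.9% exceeded all controls in both LT4 libraries, and of the latter 5.5%. The classes were chosen after seeing the data. RICTOR, at 36.5% G and C, is the member with the lowest value, and its log2 fold change of 1.48 lay above the class median of 0.295. With the GC trend of each library removed, RICTOR had 1.19 (SE 0.33, adjusted p = 0.136) and PDPK1 had 0.52 (SE 0.15, adjusted p = 0.156). MAPKAP1, PDPK1 and MTOR were at 50.3%, 51.9% and 52.2%, and the other 5 members at 58.3% to 64.5%.

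**Figure D5:**
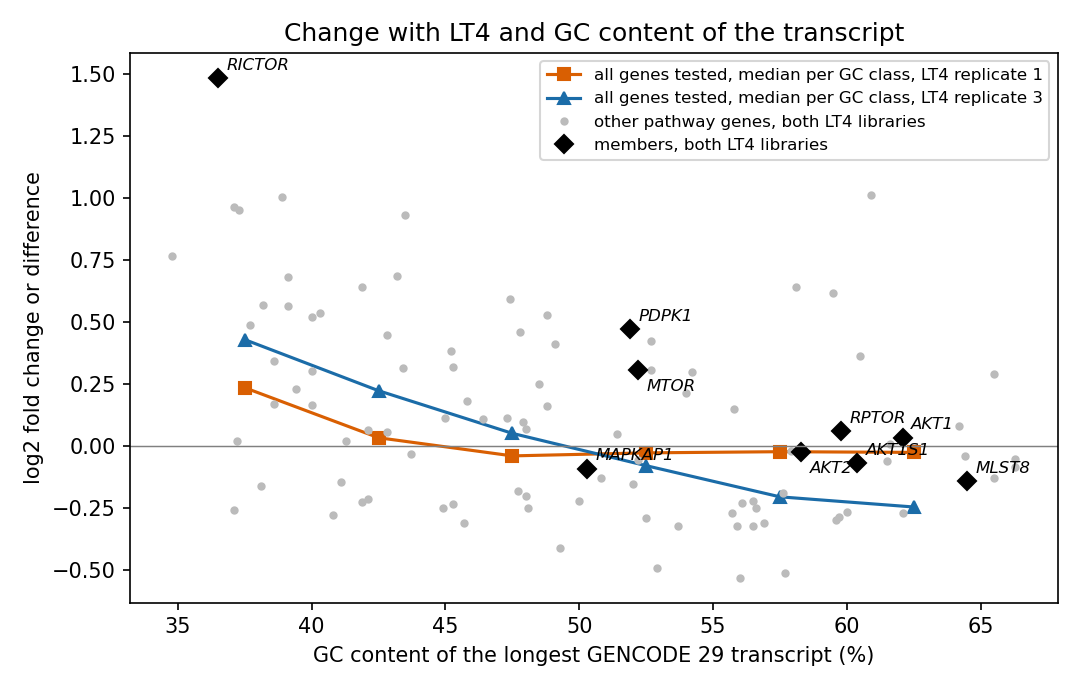
Log2 fold change against the GC content of the longest transcript for the members (diamonds) and the other pathway genes (grey points), with the median difference of all tested genes from the control mean in 6 GC classes for LT4 replicate 1 (squares) and LT4 replicate 3 (triangles), drawn at class midpoints (the open end classes as if as wide as the others). From the lowest to the highest class the medians go from 0.23 and 0.43 to -0.03 and -0.25, and RICTOR lies above them.

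Of 92 tested genes in the wider pathway lists (99 listed), 1 rose and 0 fell, against 0.137% of all genes called. The gene that rose was TRIB3, a pseudokinase described to bind AKT and a known ATF4 target, with 63, 74.4 and 69 CPM in controls 1, 2 and 3 and 151 and 124 CPM in LT4 replicates 1 and 3. TRIB3 differed by 1.01 on the log2 scale (SE 0.15, adjusted p = 0.0175). The call was lost without control 1 (adjusted p = 0.243), control 2 (0.112) or control 3 (0.193), with log2 fold changes of 0.95, 1.07 and 1.01. TRIB3 was the 1 call among 14 tested AKT regulators, whose median was -0.05. Next in that list was the chaperone gene HSP90AA1, which stabilises AKT (log2 fold change 0.38, SE 0.13, adjusted p = 0.23).

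The other lists held 0 calls by edgeR and by limma voom. Among the 13 tested PI3K and lipid phosphatase genes 1 had a higher level at an unadjusted p under 0.05 and 0 a lower one (0 calls by DESeq2), with a median of 0.18. PIK3C2A, a class II PI3K, had 5.47 ± 1.45 CPM in controls and 10.6 ± 0.242 CPM with LT4 (0.96 as log2, SE 0.27, adjusted p = 0.148), and INPP5K, an inositol phosphatase, had -0.32 (SE 0.15, adjusted p = 0.374). Among 14 AKT substrates an unadjusted p under 0.05 marked 5 as higher and 1 as lower (0 calls by DESeq2, median 0.08). PFKFB2, which controls glycolytic flux, had 8.19 ± 1.28 CPM in controls and 16 ± 2.02 CPM with LT4 (0.93, SE 0.22, adjusted p = 0.109) and the kinase WNK1 had 43.1 ± 3.29 and 61.9 ± 2.6 CPM (0.53, SE 0.14, adjusted p = 0.132).

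Among 16 other AGC kinases, the family that PDK1 activates, it marked 3 as higher and 0 as lower (0 calls by DESeq2, median -0.03). PKN2, which PDK1 binds, had 8.1 ± 1.62 and 15.6 ± 0.495 CPM (0.95, SE 0.22, adjusted p = 0.109), and the protein kinase C gene PRKCA had 0.46 (SE 0.19, adjusted p = 0.316). Among 26 genes around mTORC1 it marked 3 as higher and 1 as lower, with a median of -0.01, and DESeq2 called 1, DDIT4. The products of DDIT4 (REDD1) and SESN2 restrain mTORC1, and their transcripts had the smallest p of that list. DDIT4 had 134, 151 and 135 CPM in controls 1, 2 and 3 and 242 and 194 CPM with LT4 (0.64, SE 0.14, adjusted p = 0.1). DDIT4 passed in 7 of 19 settings, including no count filter (adjusted p = 0.0186), the length trend removed (0.0476) and the GC trend removed (0.0182). The 7 include the fit without LT4 replicate 3. DDIT4 did not pass with limma voom, with all libraries thinned to the shallowest or with any 1 control left out. Over all genes tested, 311 of 24553 were called with no count filter and 114 of 13833 with DESeq2. Removing the length trend gave 35 calls and removing the GC trend 80, against 19 in the main fit. The settings reuse the same libraries, so this tally and that of SESN2 are not independent results. SESN2 had 27.9 ± 1.19 and 42.1 ± 5.39 CPM (0.62, SE 0.15, adjusted p = 0.117). It passed in 4 of 19 settings, including the GC trend removed (adjusted p = 0.0325) and the fit without LT4 replicate 3. SESN2 did not pass with DESeq2, limma voom or any 1 control left out. DDIT4 and SESN2 transcripts were at 58.1% and 59.5% G and C, and for each the LT4 values exceeded all control values. Whether GC content bears on their change was not tested. The 5 other kinases of the mTOR family (ATM, ATR, PRKDC, SMG1 and TRRAP) had positive values, with a median of 0.32. Of these 2 were at an unadjusted p under 0.05 by edgeR and by DESeq2, with 0 calls by DESeq2. Their exons span 12496 to 25988 bases, and with the length trend removed 0 were at an unadjusted p under 0.05 by edgeR. SMG1, of RNA surveillance, had 0.68 (SE 0.17, adjusted p = 0.117) and PRKDC, the DNA repair kinase, 0.32 (SE 0.13, adjusted p = 0.305).

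The GC content of these genes was as follows. Of the members and pathway genes together, 18 were higher at an unadjusted p under 0.05, with a median of 44.4% G and C and 9 under 45%. The 4 that were lower had 49.3% to 53.7%. Over the 101 genes tested the median was 48.8% with 33 under 45%. PIK3C2A and PKN2, at 37.1% and 37.3%, were as low as RICTOR, while TRIB3 was at 60.9%. Whether GC content differed between higher and lower pathway genes was not tested.

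The protein-coding genes whose pattern over the 5 libraries was most like that of each member were taken by the smallest root mean square difference in log2 CPM centred on the control mean. For RICTOR these were RB1CC1 (difference 0.143), BAZ2B (0.148) and FBXL17 (0.17), with log2 fold changes of 1.46, 1.32 and 1.27 and transcripts of 37.6%, 40% and 47.3% G and C. For PDPK1 they were ERRFI1 (0.0293), IFFO2 (0.0367) and SPRY4 (0.0374). ERRFI1 and SPRY4 encode feedback inhibitors of receptor kinase signalling. For MTOR they were SLTM (0.036), EEPD1 (0.0412) and JAG1 (0.0423). AKT1 was nearest to KLHL21 (0.018), GRAMD1A (0.0219) and GTPBP1 (0.0223), and AKT2 to TOX4 (0.0165), PLEKHH3 (0.0208) and ALKBH1 (0.0234). RPTOR was nearest to OGDH (0.0208), ZMYM3 (0.0211) and ESYT1 (0.0223), and AKT1S1 to DCAF7 (0.0161), ELL (0.0169) and CBX2 (0.0194). MLST8 was nearest to TBL1X (0.0139), RPA1 (0.0166) and PHF13 (0.0174), and MAPKAP1 to HTR1D (0.031), COPS5 (0.0351) and DENND2D (0.039). The differences for RICTOR were larger than for the other members.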

How the data were processed

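Poly(A) RNA of HCT116 cells was sequenced after TRIzol extraction and TruSeq stranded mRNA preparation, per the labels' protocols. The submitters' processing notes name GRCh38, HISAT2 2.1.0, featureCounts (Subread 2.0.1), fastp 0.20.0 and SAMtools 1.9. The sources used here give no annotation, filters or strand setting. The deposited table holds raw read counts per gene and TPM for each library, per the file headers. For each LT4 library against the controls, the authors deposited p-values, raw and adjusted, and log2 ratios from an unnamed test. Left unused were 2 per-sample columns and 3 columns of a comparison with no matching sample.

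Groups came from sample titles. Counts were filtered by edgeR's expression filter, scaled by TMM and tested with edgeR 4.0.16 (quasi-likelihood, robust, group as the only term, R 4.3.3) over all genes, with Benjamini-Hochberg adjustment. SEs were derived from the log2 fold change and F. A lone LT4 library is assumed to vary like the controls. Alternatives used DESeq2 1.42.0 and limma 3.58.1. Locations, exon lengths and GC content came from GENCODE 29, which held 58516 of 60623 gene IDs. The workflow was tested on simulated counts. Members, lists and the named-gene rule (all members and other complex subunits, per list the 2 smallest p and any call, and per member the 3 nearest patterns) were chosen with earlier results of these data known. Some genes are not reported here.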

Additional observations from a re-analysis of the deposited data

How the results depend on the processing

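The number of members past the threshold was 0 in the fit of all 5 libraries and 1 with no count filter (RICTOR). With 1 library left out it ranged from 0 to 1, the 1 being PDPK1 without LT4 replicate 3. It was 0 in the other joint alternatives. Over all genes the count of 19 became 1 at an adjusted p under 0.01, 311 with no filter, 114 with DESeq2, 0 at equal depth, 35 with the length trend removed and 80 with the GC trend removed, and ranged from 1 to 598 with a library left out. In the wider pathway lists the count of 1 became 0 at the stricter threshold and at equal depth, 7 with no filter, 2 with DESeq2, 2 with the length trend removed and 3 with the GC trend removed, and ranged from 0 to 11 with a library left out. At equal depth, edgeR's unadjusted p was under 0.05 for 332 genes with higher and 281 with lower values.

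Replicate numbers are shared by control and LT4 libraries, but no label says that they mark a shared culture or day. Deviations from the group means correlated at 0.207 for replicate 1 and 0.212 for replicate 3. With 2 LT4 libraries their deviations mirror each other, so crossing the numbers gave -0.207 for control 1 and -0.212 for control 3. The values are thus not independent checks of pairing. Control 2 has no LT4 library of its number and stands alone in a block. A block fit therefore leaves little from which to estimate spread. With a replicate block 427 genes, 0 members and 7 list genes (TRIB3, PFKFB2, WNK1, PKN2, DDIT4, SESN2 and SMG1) passed, and 312, 0 and 4 with the length trend removed as well.

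With LT4 replicate 1 alone the log2 fold change was 0.62 for PDPK1 and 1.30 for RICTOR. With LT4 replicate 3 alone it was 0.21 and 1.79. Each of these fits has 1 library in the LT4 group. Whether PDPK1 (LT4 replicate 1 alone) and RICTOR (either LT4 library alone) passed depended on the settings. PDPK1 did not pass with library totals, no filter, DESeq2, limma voom, the length trend removed or the stricter threshold. These single-library alternatives and the GC trend were chosen after seeing the data.

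Signs turned for members near 0. AKT1 had -0.0027 with no filter, -0.0042 at equal depth, -0.17 with the length trend removed and -0.10 with the block as well, and from -0.26 to 0.26 with a library left out. AKT2 had 0.022 with library totals and 0.073 with the GC trend removed, and from -0.27 to 0.16 with a library left out. RPTOR had -0.13 with the length trend removed and -0.050 with the block as well, and from -0.34 to 0.32 with a library left out. MLST8 had 0.073 at equal depth and 0.015 with the GC trend removed. AKT1S1 had 0.018 and 0.051 under the same settings, and from -0.25 to 0.081 with a library left out. MAPKAP1 ranged from -0.36 to 0.20 with a library left out. The ratio of RPTOR to AKT1S1 ranged from -0.085 to 0.25. MTOR, PDPK1 and RICTOR kept a positive sign wherever they were fitted. RICTOR had no value under the 50-count minimum or at equal depth. The level of AKT2 in controls was 17.6 TPM with GENCODE 29 exon lengths. The cause of these differences was not tested. Depth limits RICTOR and DEPTOR most.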
